A study of Mus musculus with 2 samples.

Results

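Matrix metalloproteinases (MMPs), ADAMTS proteases and tissue inhibitors of metalloproteinases (TIMPs) were followed across the cells of mouse hind limb muscle after nerve crush. The members were all features whose symbol was Mmp, Adamts or Timp followed by digits and at most 1 letter, which gave 45 of the 32287 features of the count matrix. They comprised 22 Mmp, 19 Adamts and 4 Timp genes. The rule read gene symbols alone. Of these 45 genes, 30 reached 20 UMIs per 1000000 (CPM, explained below) from at least 30 molecules in some class of cells and are described below with their levels.

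The cells came from S100GFPtg mice, whose transgene drives green fluorescent protein from the S100B promoter in Schwann cells and in other cells that use it. Tibialis anterior and gastrocnemius muscles of 2-month-old males, titled WT, were taken 7 days after sciatic nerve crush and digested with enzymes, and live GFP+ cells (negative for propidium iodide) were sorted into a droplet library of 3' tags. The series text speaks of 1 crushed mouse and the study's methods of pooled males, so the number of animals is uncertain. There was 1 library of this kind and no uninjured one, so no value below has a replicate and none can be set against muscle without injury. The counts of the matching GFP- library, from the same genotype, treatment and day, were not analysed here.

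MMPs are zinc enzymes that cut collagens, gelatin, elastin and many non-matrix proteins, either secreted or held at the cell surface. ADAMTS enzymes are secreted relatives with thrombospondin repeats that cut proteoglycans such as versican, trim procollagens or bind microfibrils. TIMPs block the active site of most MMPs, and TIMP3 also that of some ADAMTS enzymes. In injured muscle and nerve the balance between TIMPs and these enzymes shapes how matrix is cleared and laid down again.

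The library held 36400 barcodes with a median of 2130 unique molecular identifiers (UMIs, 1 per captured transcript). Levels were read in the 8701 barcodes with at least 5000 UMIs, more than 200 genes and under 10% mitochondrial UMIs. Barcodes were sorted into classes by marker genes, none of them a member. Barcodes of monocytes and macrophages, pooled and called macrophage barcodes below, numbered 5504, or 63.3% of the 8701. They took in the 420 Ly6c2 Chil3 monocytes and 1439 myeloid barcodes of no inner class that are given apart further on, but not the dendritic cells. Stromal barcodes (fibroblasts and tenocytes) numbered 1602, and Schwann barcodes 81, although the label of the sort is S100GFP+. Genes of the classes that no gate had used were checked. Col1a1, Col1a2, Col3a1, Dcn and Serpinf1 together stood at 35814 CPM in stromal and 173 CPM in macrophage barcodes, and 8 macrophage genes including Csf1r and C1qa stood at 11135 CPM in macrophage and 305 CPM in stromal barcodes. Of all barcode sequences, 372 (1.02%) also occurred in the barcode list of the GFP- library.

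A level is given as CPM, the UMIs of a gene per 1000000 UMIs summed over the barcodes of a class, followed by its exact Poisson 95% interval. These intervals, and all other intervals here, cover counting error only. Free RNA puts some UMIs of every abundant gene into every droplet. The stromal check genes stood in macrophage barcodes at 0.484% of their stromal level (0.349 to 1.79% by gene), and 5 myeloid check genes stood in stromal barcodes at 2.93% of their macrophage level (1.58 to 21.0% by gene). A member at or under such a percentage of its own level elsewhere was read as background. Each upper end came from 1 gene. These were Serpinf1 (27.3 CPM in macrophage, 1527 CPM in stromal barcodes) and Cyba (240 CPM in stromal, 1145 CPM in macrophage barcodes). The other stromal check genes stood at up to 0.527%, the value of Col1a1.

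Most members that could be compared were higher in stromal than in macrophage barcodes. Of the 29 members with at least 5 CPM on either side, 22 were at least 4-fold higher in stromal than in macrophage barcodes, against a background of 16.8% of all 11522 features compared in the same way. In the other direction 2 of 29 members, Mmp12 and Mmp9, were at least 4-fold higher in macrophage barcodes, against a background of 9.76%. The median log2 ratio of stromal to macrophage level was 5.12 over the 29 members and 0.11 over all 11522 features. For 14 of the 22 stromal members the macrophage level was at or under 1.79% of the stromal one and so within background by this limit, which Serpinf1 alone set. Among these 14, Mmp2, Mmp16, Adamts1, Adamts4, Adamts9 and Timp3 stood at 0.559 to 1.08%, above the 0.527% of Col1a1. The other 8 of the 22, which were Mmp11, Mmp14, Mmp27, Adamts3, Adamts10, Adamts14, Adamts17 and Timp1, stood in macrophage barcodes at 2.87 to 22.2% of their stromal level. Of the 22, Adamts1, Adamts4, Adamts9 and Timp3 were highest in mural and Adamts17 in Schwann barcodes. The remaining 5 members, Mmp13, Mmp19, Mmp25, Adamts6 and Timp2, passed the 4-fold limit in neither direction. For Mmp13 this rested on 1 tenocyte barcode, without which its log2 ratio was -2.21, past the limit for macrophages. With a minimum of 2000 UMIs per barcode in place of 5000, the stromal check genes stood in macrophage barcodes at 1.73% of their stromal level (up to 2.93% by gene), and 12 of the 22 stromal members were within that background.

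**Figure D1:**
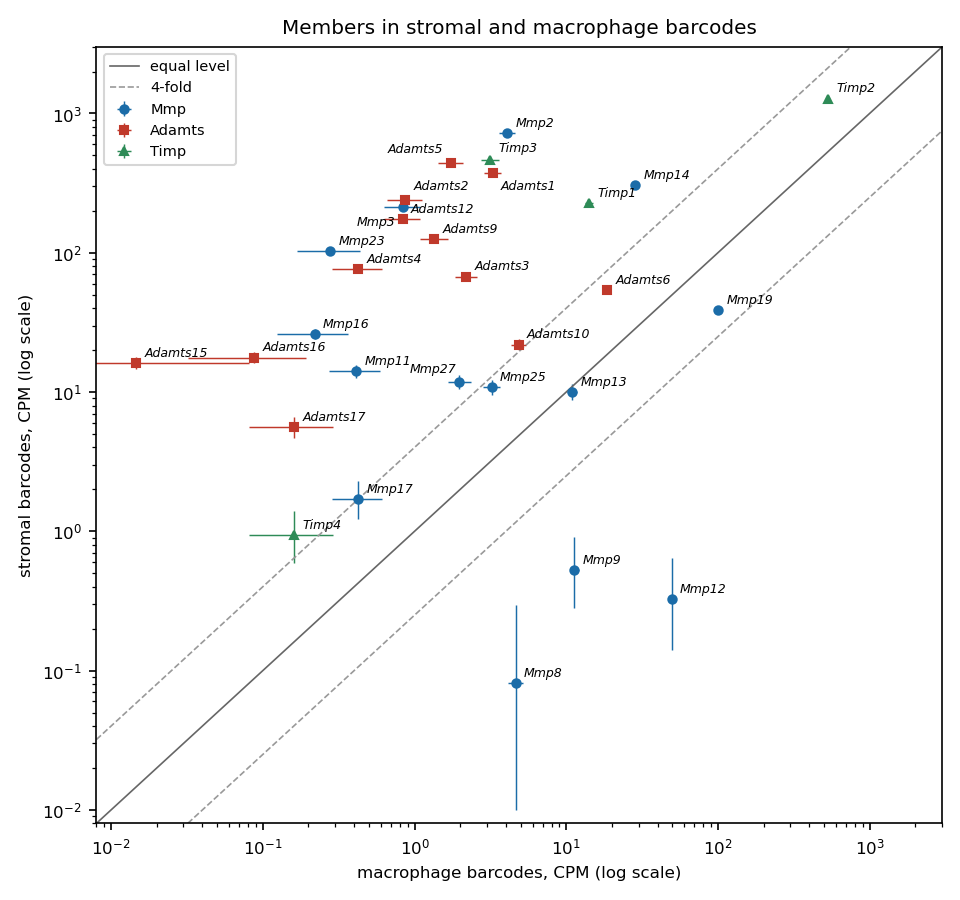
Level of described members in macrophage barcodes (horizontal axis, CPM, log scale) and in stromal barcodes (vertical axis, CPM, log scale). Points are genes, coloured by family, bars are exact Poisson 95% intervals of the counts, the solid line marks equal levels and the dashed lines a 4-fold difference. Every described Adamts gene lies above the line of equal levels, while Mmp8, Mmp9, Mmp12 and Mmp19 lie below it and Mmp13 lies just under it, with intervals that overlap.

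The levels of the 30 described members were compared over 18 classes of at least 30 barcodes. The myeloid classes were named by their leading marker genes. They comprised 3186 Lyve1 Folr2 macrophages, 459 Gpnmb Fabp5 macrophages, 420 Ly6c2 Chil3 monocytes, 1439 other myeloid barcodes and 3 sets of dendritic cells (266 Cd209a Flt3, 253 Xcr1 Clec9a and 31 Ccr7 Fscn1). The stromal classes comprised 325 Pi16 Dpp4, 338 Dkk2 Bmper, 100 Smoc2 Cxcl14 and 96 Gdf10 Inmt fibroblasts, 347 tenocytes and 382 other stromal barcodes. Beside them stood 273 muscle progenitors, 81 Schwann, 60 mural and 44 endothelial barcodes.

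A gate of neutrophil genes (Retnlg, Csf3r, Cxcr2, S100a8 and Hdc) took 38 barcodes, but 8 macrophage check genes reached 7253 CPM there, so these barcodes are called the Retnlg Csf3r gate and not neutrophils. Inside it, 11 barcodes had under 2000 CPM of the macrophage check genes and 27 had more. This split was made after the values were seen. The 11 barcodes held 940 of the 964 Retnlg UMIs of the gate, with 358 in a single barcode, and 1866 of its 2306 S100a8 UMIs. They held only 24 of the 95 Csf3r and 14 of the 29 Cxcr2 UMIs. Csf3r stood at 182 CPM in the 11 and 183 CPM in the 27 barcodes, so it did not set them apart.

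**Figure D2:**
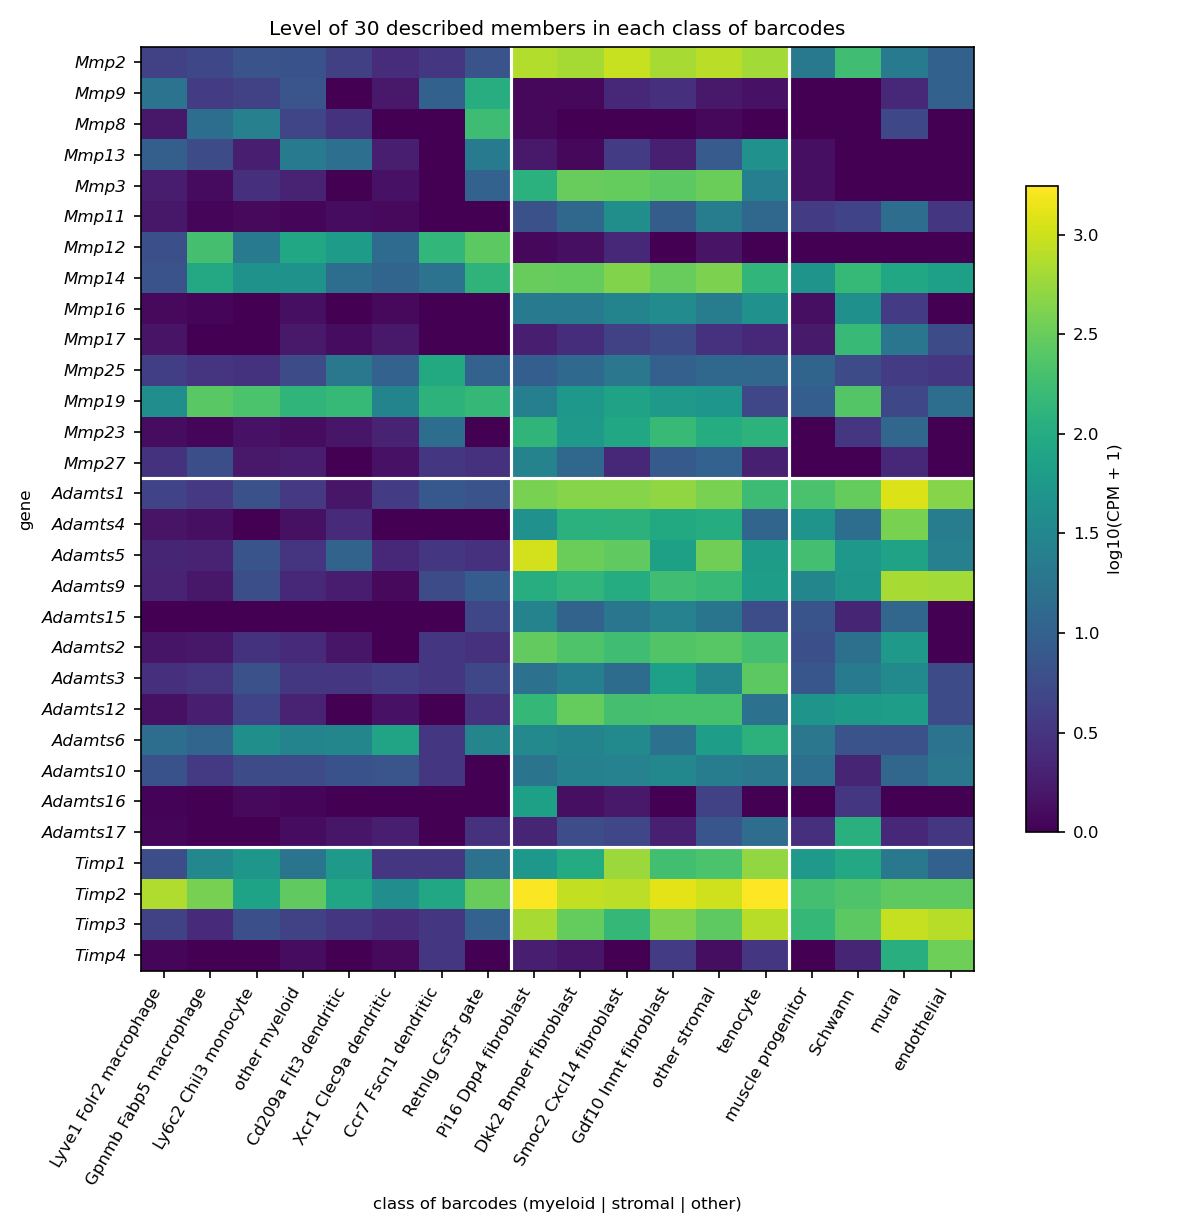
Level of the 30 described members (rows, ordered as Mmp, Adamts and Timp genes) in 18 classes of barcodes (columns, myeloid, then stromal, then other) as log10 of CPM plus 1. The stromal columns are bright for most rows, whereas Mmp8, Mmp9 and Mmp12 are bright in myeloid columns, Mmp17 and Adamts17 in the Schwann column and Timp4 in the endothelial and mural columns.

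A run of 9 members sits side by side in the genome, with its highest levels in different cells, so the stretches in front of a few of their starts are shown here. In RefSeq's annotation of GRCm38.p6 (the sources differ over the build the counts were made on, so these coordinates name the genes and not the reads), Mmp13, Mmp12, Mmp1b, Mmp3, Mmp10, Mmp8, Mmp27, Mmp20 and Mmp7 lie in this order at chr9:7272514-7699585, within 427 kb. Windows of 250 bases before to 50 bases after a start were at hand for 31 of the 45 members. The motif TGAGTCA, the usual letters of an AP-1 element, was searched on both strands, which is the same as searching TGAGTCA and TGACTCA on 1 strand. It occurred in the windows of 6 of these 9 members (Mmp13, Mmp12, Mmp1b, Mmp3, Mmp10 and Mmp7) and of 0 of the other 22 members with a window. Over the whole genome 5.95% of 27025 genes with a window had it in at least 1 of them (5.2% of 32851 windows). A match is a description of letters and not evidence of binding. The 120 bases before the start, all on the plus strand, are printed for the 3 cluster members with motif and levels discussed below, and for Mmp8, whose window lacked it. The motif is in capitals.
Mmp13, chr9:7272394-7272513: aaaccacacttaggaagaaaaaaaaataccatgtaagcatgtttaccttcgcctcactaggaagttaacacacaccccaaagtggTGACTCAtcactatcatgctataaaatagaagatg
Mmp12, chr9:7347254-7347373: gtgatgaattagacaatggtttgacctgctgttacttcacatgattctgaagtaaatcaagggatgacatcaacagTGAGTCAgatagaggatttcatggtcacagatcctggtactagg
Mmp3, chr9:7445702-7445821: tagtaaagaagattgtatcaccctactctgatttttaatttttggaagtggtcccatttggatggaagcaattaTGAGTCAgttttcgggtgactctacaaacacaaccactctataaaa
Mmp8, chr9:7558309-7558428: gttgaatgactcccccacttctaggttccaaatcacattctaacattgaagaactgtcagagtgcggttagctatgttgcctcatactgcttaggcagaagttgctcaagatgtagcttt
The motif began 35 bases before the start of Mmp13, 44 before that of Mmp12 (at the one of its 2 listed starts whose window held the motif) and 46 before that of Mmp3. Mmp3 had its highest levels in fibroblasts, while most UMIs of Mmp12 and Mmp13 lay in macrophage barcodes, as given next.

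The gelatinases were split by lineage. Mmp2, which cuts gelatin and basement membrane collagen, was the most abundant Mmp of the stroma at 723 CPM (713 to 734), against 4.09 CPM (3.62 to 4.60) in macrophage barcodes. That is 0.565% of the stromal level (1.84% with a minimum of 2000 UMIs). It was within background by the limit of 1.79%, though above the 0.527% of Col1a1. After thinning every barcode to 5000 UMIs, 89.3% of stromal and 1.87% of macrophage barcodes had a Mmp2 UMI, from median depths of 14718 and 11266 UMIs, and before thinning the shares were 97.1% and 3.22%. Within the stroma its level varied little. It was 943 CPM (895 to 994) in Smoc2 Cxcl14 fibroblasts, 736 CPM in Pi16 Dpp4, 659 CPM (612 to 708) in Gdf10 Inmt, 641 CPM (620 to 663) in Dkk2 Bmper fibroblasts and 632 CPM (609 to 656) in tenocytes, and the intervals of the last 3 overlapped. Schwann barcodes had 177 CPM (150 to 208), while the stromal check genes stood there at 7.90% of their stromal level.

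Mmp9, the gelatinase B of leukocytes, was low and followed the Lyve1 Folr2 macrophages. These had 16.4 CPM (15.1 to 17.7), Ly6c2 Chil3 monocytes 3.28 CPM (1.84 to 5.41), Gpnmb Fabp5 macrophages 2.67 CPM (1.67 to 4.04) and the stroma 0.529 CPM (0.281 to 0.904). After thinning, 5.08% of Lyve1 Folr2 and 0.312% of stromal barcodes had a Mmp9 UMI (8.85% and 0.749% before). Mmp9 was 106 CPM (79.6 to 138) in the 38 barcodes of the Retnlg Csf3r gate, and 258 CPM (179 to 360) in the 11 of them with few macrophage genes.

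The collagenases were rare. Mmp8, the collagenase of neutrophil granules, had 24.9 CPM (20.6 to 30.0) in Ly6c2 Chil3 monocytes and 14.1 CPM (11.6 to 16.9) in Gpnmb Fabp5 macrophages, against 0.597 CPM (0.378 to 0.895) in Lyve1 Folr2 macrophages and 2 UMIs in the whole stroma. The Retnlg Csf3r gate had 173 CPM (139 to 213). Of its 90 Mmp8 UMIs 87 lay in the 11 barcodes with few macrophage genes, where the level was 660 CPM (529 to 814), and 42 lay in 1 barcode. Mmp8 and Mmp9, both known from leukocytes, thus had their highest levels in this gate and opposite orders in the macrophages.

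Mmp13, the main interstitial collagenase of rodents, had its highest nominal level in tenocytes at 43.5 CPM, but 188 of those 189 UMIs came from 1 barcode of 347, and without it the level was 0.232 CPM. Macrophage barcodes had 746 Mmp13 UMIs (10.9 CPM) in 196 barcodes, of which 20 had 10 or more. The single tenocyte barcode therefore decided the tenocyte value, and the macrophage UMIs were spread over more barcodes. The stromal and macrophage levels of Mmp13 were 10.0 and 10.9 CPM, with a log2 ratio of -0.13 (95% interval -0.34 to 0.08). Without the barcode with most Mmp13 UMIs the stromal level was 2.36 CPM.

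The stromelysin Mmp3 was far higher in fibroblasts than in macrophages, while Mmp11 differed between fibroblasts and tenocytes by no more than counting error. Mmp3, which cuts proteoglycans and activates other MMPs, had 254 CPM (247 to 261) in fibroblasts and 0.836 CPM in macrophages. It was 313 CPM (298 to 328) in Dkk2 Bmper, 299 CPM (272 to 328) in Smoc2 Cxcl14, 268 CPM (239 to 301) in Gdf10 Inmt and 119 CPM (110 to 128) in Pi16 Dpp4 fibroblasts. Tenocytes had 23.9 CPM, of which 71 of 104 UMIs lay in 1 barcode, and 7.67 CPM without it. Mmp11, stromelysin 3, had its highest level in Smoc2 Cxcl14 fibroblasts at 39.6 CPM (30.2 to 50.9), 3.41-fold (2.35 to 4.95) that of Dkk2 Bmper fibroblasts. Over all fibroblasts it was 14.8 CPM (13.1 to 16.5) against 11.3 CPM (8.34 to 14.9) in tenocytes, a log2 ratio of tenocytes over fibroblasts of -0.39 (-0.86 to 0.05).

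**Figure D3:**
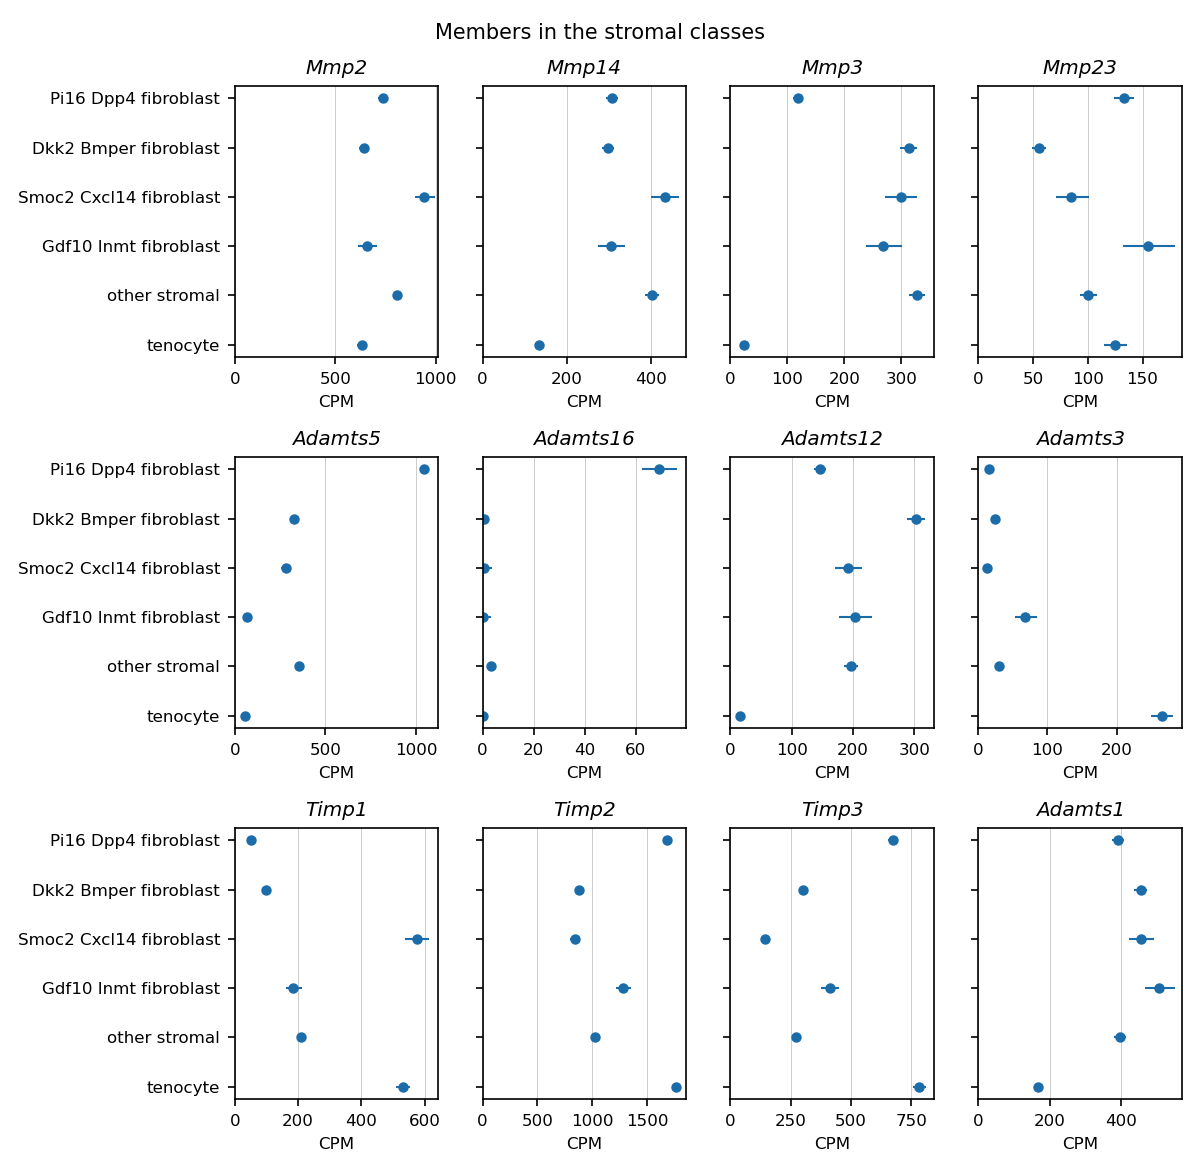
Level of 12 members (panels, CPM on a linear axis from 0) in the 6 stromal classes. Points are levels and bars exact Poisson 95% intervals of the counts. Mmp3 and Adamts12 are low in tenocytes, Adamts3 is high there, and Adamts5 and Adamts16 stand out in Pi16 Dpp4 fibroblasts.

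Mmp12, the macrophage elastase, lay in few barcodes. It had 49.6 CPM (47.9 to 51.3) in macrophage barcodes and 0.325 CPM (0.141 to 0.641) in the stroma, a log2 ratio of -7.25 (-8.46 to -6.27), or -4.56 with a minimum of 2000 UMIs. Gpnmb Fabp5 macrophages had 195 CPM (186 to 205) and Lyve1 Folr2 macrophages 5.27 CPM (4.57 to 6.04). The UMIs were unevenly spread. In Gpnmb Fabp5 macrophages 52 of 459 barcodes had a Mmp12 UMI (11.3%, or 6.54% after thinning, against 0.187% of stromal barcodes), 13 had 10 or more, and 1 had 453 of the 1607 UMIs. Without the 5 barcodes with most Mmp12 UMIs the level there was 51.2 CPM, and without 55 such barcodes the macrophage level was 3.07 CPM. The level of 142 CPM in Ccr7 Fscn1 dendritic cells came whole from 1 barcode of 31. In the Retnlg Csf3r gate it was 267 CPM (225 to 315), with 119 of 139 UMIs in 1 barcode. In Cd209a Flt3 dendritic cells it was 60.8 CPM (53.0 to 69.5), from 30 of 266 barcodes.

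The membrane-type enzymes were found in stromal, myeloid and Schwann barcodes. Mmp14, the membrane collagenase that activates pro-MMP2, had 307 CPM (300 to 314) in the stroma, from 134 CPM (124 to 146) in tenocytes to 433 CPM (401 to 468) in Smoc2 Cxcl14 fibroblasts. Gpnmb Fabp5 macrophages had 90.1 CPM (83.7 to 96.8), Ly6c2 Chil3 monocytes 45.3 CPM (39.3 to 51.9) and Lyve1 Folr2 macrophages 5.68 CPM (4.95 to 6.49). After thinning, 29.8% of Gpnmb Fabp5 and 2.13% of Lyve1 Folr2 barcodes had a UMI, from median depths of 17035 and 11302 UMIs, and before thinning 54.0% and 4.30%. The stromal check genes stood in Gpnmb Fabp5 macrophages at 0.289% of their stromal level and in Lyve1 Folr2 macrophages at 0.432%. The highest gene in the latter was Serpinf1 at 2.20%, and by that limit their Mmp14 level was within background.

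Mmp17, a membrane enzyme with a lipid anchor, marked the Schwann barcodes. It had 158 CPM (132 to 187) there and 1.71 CPM (1.23 to 2.31) in the stroma, a 92.4-fold difference (64.9 to 134). After thinning, 59.3% of Schwann and 1.06% of stromal barcodes had a Mmp17 UMI (74.1% and 2.43% before thinning, at median depths of 8934 and 14718 UMIs). The next class was mural at 17.6 CPM (9.38 to 30.1). Adamts17, a relative of the fibrillin-binding enzymes, was also highest in Schwann barcodes at 114 CPM (92.7 to 139), with 27 of 99 UMIs in 1 barcode and 84.1 CPM without it. Tenocytes followed with 13.3 CPM (10.1 to 17.3). Mmp16, another membrane enzyme, had 43.5 CPM (37.5 to 50.1) in tenocytes and 41.5 CPM (29.0 to 57.4) in Schwann barcodes, whose intervals overlapped (log2 ratio 0.07, -0.45 to 0.63).

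Mmp25, also lipid-anchored, had 93.8 CPM (67.3 to 127) in the 31 Ccr7 Fscn1 dendritic barcodes, from 41 UMIs in 8 barcodes, and 68.4 CPM without the 1 with most. Its next level was 19.1 CPM (14.8 to 24.2) in Cd209a Flt3 dendritic cells. Mmp23, a small membrane-linked enzyme, was stromal, with 155 CPM (132 to 180) in Gdf10 Inmt, 133 CPM (124 to 143) in Pi16 Dpp4 and 55.4 CPM (49.3 to 62.1) in Dkk2 Bmper fibroblasts, and 0.279 CPM in macrophages.

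Mmp19, which cuts basement membrane proteins, was found in most myeloid classes. Gpnmb Fabp5 macrophages had 261 CPM (250 to 272), Ly6c2 Chil3 monocytes 212 CPM (199 to 226), Cd209a Flt3 dendritic cells 148 CPM (136 to 161) and Lyve1 Folr2 macrophages 38.5 CPM (36.5 to 40.5). Schwann barcodes had 237 CPM (206 to 272), whose interval overlapped that of the Gpnmb Fabp5 macrophages, and 176 CPM without the 1 barcode with most UMIs. The myeloid check genes stood in Schwann barcodes at 4.04% of their macrophage level. Tenocytes had 3.91 CPM (2.28 to 6.26). Mmp27 had its highest level in Pi16 Dpp4 fibroblasts at 27.0 CPM (23.0 to 31.6), against 0.920 CPM (0.251 to 2.36) in tenocytes.

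Between the 2 macrophage classes, 5 of 10 members with at least 5 CPM, which were Mmp8, Mmp12, Mmp14, Mmp19 and Timp1, were at least 4-fold higher in Gpnmb Fabp5 than in Lyve1 Folr2 macrophages, against a background of 2.17% of 9829 features. The reverse held for 1 of 10, Mmp9, against a background of 7.65%. The median log2 ratio of Gpnmb Fabp5 to Lyve1 Folr2 level was 1.14 over the 10 members and -0.24 over all features. The folds were 37.0 (32.0 to 43.1) for Mmp12, 23.6 for Mmp8, 15.9 (13.6 to 18.5) for Mmp14, 6.79 (6.35 to 7.25) for Mmp19 and 6.44 (5.32 to 7.80) for Timp1. The Mmp12 level of Gpnmb Fabp5 macrophages was 140 CPM without the 1 barcode with most UMIs. Ly6c2 Chil3 monocytes were above Lyve1 Folr2 macrophages by 41.8-fold (26.5 to 68.6) for Mmp8, 7.97-fold (6.56 to 9.68) for Mmp14 and 5.51-fold (5.08 to 5.98) for Mmp19. For Mmp12 they had 21.0 CPM (17.0 to 25.6), but 83 of 96 UMIs lay in 1 barcode, and without it the level was 2.85 CPM, below that of Lyve1 Folr2 macrophages. For Timp1 they had 51.2 CPM against 4.90 CPM, and 22.0 CPM without 1 barcode. Both sets of folds share the Lyve1 Folr2 barcodes as their reference. There Mmp14 and Timp1 were within background by the highest stromal check gene, Serpinf1 at 2.20%. By that limit their folds are read as lower bounds.

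**Figure D4:**
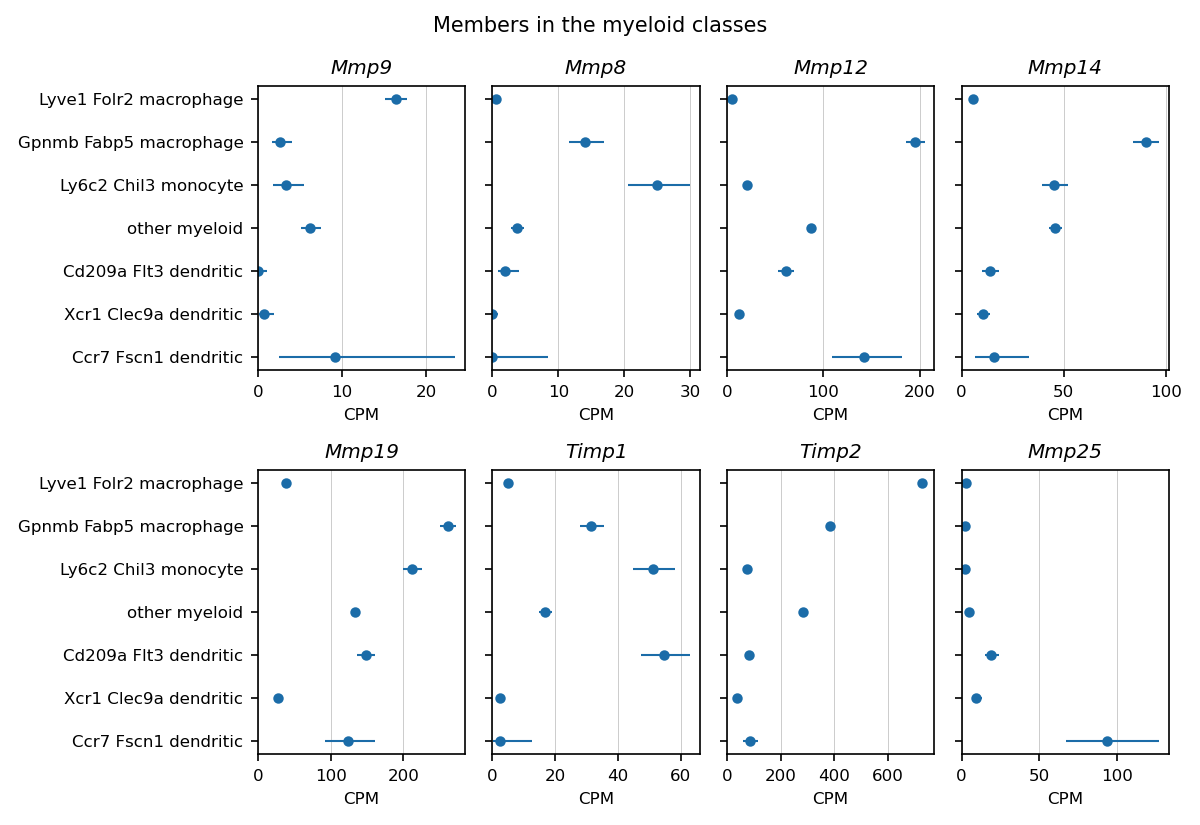
Level of 8 members (panels, CPM on a linear axis from 0) in 7 myeloid classes. Points are levels and bars exact Poisson 95% intervals of the counts. Mmp12, Mmp14 and Mmp19 are high and Timp2 is lower in Gpnmb Fabp5 than in Lyve1 Folr2 macrophages, and Mmp9 is lower there. The Mmp12 points of the Ly6c2 Chil3 and Ccr7 Fscn1 classes rest on 1 barcode each.

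The ADAMTS genes that cut versican and aggrecan were shared between fibroblasts and vessels. Adamts5 had 1045 CPM (1019 to 1071) in Pi16 Dpp4 fibroblasts, 325 CPM (310 to 340) in Dkk2 Bmper, 282 CPM (256 to 310) in Smoc2 Cxcl14 and 69.6 CPM (54.9 to 87.0) in Gdf10 Inmt fibroblasts, and 59.1 CPM (52.1 to 66.8) in tenocytes. After thinning, 95.1% of Pi16 Dpp4 and 0.890% of macrophage barcodes had a UMI (99.1% and 1.44% before, at median depths of 17992 and 11266 UMIs). Muscle progenitors had 190 CPM (174 to 207), with 2.15% of the stromal level of the stromal check genes.

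Adamts1 was highest in mural cells at 1194 CPM (1117 to 1276) and stood at 506 CPM (465 to 550) in Gdf10 Inmt fibroblasts, 452 CPM (391 to 519) in endothelial cells and 168 CPM (156 to 181) in tenocytes. Adamts1 and Adamts5 are neighbours on chromosome 16. Adamts5 had 73.2 CPM (55.0 to 95.5) in mural cells, so the classes with their highest levels differed. Adamts4 also led in mural cells at 388 CPM (344 to 435), with 119 CPM (103 to 138) in Smoc2 Cxcl14 fibroblasts and 10.6 CPM (7.75 to 14.1) in tenocytes. Adamts9 stood at 655 CPM (598 to 716) in mural and 621 CPM (549 to 700) in endothelial cells, which overlapped, and at 177 CPM (153 to 204) in Gdf10 Inmt fibroblasts. The 60 mural barcodes also held the macrophage check genes at 1757 CPM and the stromal ones at 7.30% of the stromal level. Their part in the mural values was not tested. Adamts15 was low, at 27.0 CPM (23.0 to 31.6) in Pi16 Dpp4 and 26.2 CPM (17.6 to 37.6) in Gdf10 Inmt fibroblasts.

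The procollagen N-proteinases, which remove the amino-terminal propeptides of fibrillar collagens, were spread unevenly over the stroma. Adamts2 ranged from 177 CPM (156 to 199) in Smoc2 Cxcl14 to 290 CPM (276 to 304) in Pi16 Dpp4 fibroblasts, with 189 CPM (176 to 203) in tenocytes. Adamts3 was 265 CPM (250 to 281) in tenocytes and 24.9 CPM (22.8 to 27.2) in fibroblasts, 10.7-fold apart (9.59 to 11.9). Adamts14 stayed under the limit for description with 250 UMIs in all.

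Adamts12, which cuts the cartilage protein COMP, was low in tenocytes. It had 208 CPM (202 to 214) in fibroblasts, with 302 CPM (287 to 317) in Dkk2 Bmper, and 15.2 CPM (11.7 to 19.3) in tenocytes. Comp itself stood at 1859 CPM (1819 to 1900) in tenocytes and 89.6 CPM (85.5 to 93.8) in fibroblasts.

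Adamts6 and Adamts10, which act on fibrillin microfibrils, had broader levels. Adamts6 had 121 CPM (111 to 132) in tenocytes, 78.8 CPM (70.8 to 87.5) in Xcr1 Clec9a dendritic cells and 40.2 CPM (34.6 to 46.5) in Ly6c2 Chil3 monocytes, with 13.7 CPM (12.6 to 14.9) in Lyve1 Folr2 macrophages. The dendritic UMIs lay in 93 of 253 barcodes. Adamts10 did not exceed 31.6 CPM (22.0 to 44.0), in Gdf10 Inmt fibroblasts. Most Adamts16 UMIs lay in 1 class. Pi16 Dpp4 fibroblasts held 403 of its 435 stromal UMIs at 68.9 CPM (62.4 to 76.0), and the next class, other stromal barcodes, had 3.40 CPM (2.10 to 5.19). It had 2 UMIs in Dkk2 Bmper fibroblasts and none in tenocytes, where the upper Poisson bound for 0 UMIs was 0.849 CPM.

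Tenocytes and fibroblasts were compared over all members. Of 28 members with at least 5 CPM in either, Adamts3, Mmp13 and Mmp28 were at least 4-fold higher in tenocytes (3 of 28, background 3.77% of 11136 features), the second of them through the 1 barcode named above. Another 9 of 28, which were Mmp3, Mmp19, Mmp27, Adamts4, Adamts5, Adamts12, Adamts14, Adamts16 and Adamts19, were at least 4-fold higher in fibroblasts, against a background of 5.59%. The median log2 ratio of tenocyte to fibroblast level was -0.39 over the 28 members and -0.01 over all features.

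The 4 inhibitors differed in their classes. Timp1, the inducible secreted inhibitor, had 575 CPM (538 to 615) in Smoc2 Cxcl14 fibroblasts and 530 CPM (509 to 552) in tenocytes, against 98.1 CPM (89.8 to 107) in Dkk2 Bmper and 52.7 CPM (47.0 to 58.9) in Pi16 Dpp4 fibroblasts. In tenocytes 303 of 2305 UMIs lay in 1 barcode, and the level without it was 463 CPM. Among myeloid cells it was 54.7 CPM (47.3 to 62.9) in Cd209a Flt3 dendritic cells, 51.2 CPM (44.8 to 58.2) in Ly6c2 Chil3 monocytes (22.0 CPM without 1 barcode of 134 UMIs) and 4.90 CPM (4.23 to 5.65) in Lyve1 Folr2 macrophages.

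Timp2, which with MMP14 also helps to activate pro-MMP2, had at least 38.3 CPM in each of the 18 classes. It had 1766 CPM (1727 to 1806) in tenocytes, 1683 CPM (1650 to 1717) in Pi16 Dpp4 and 841 CPM (796 to 889) in Smoc2 Cxcl14 fibroblasts. Lyve1 Folr2 macrophages had 728 CPM (719 to 736), Gpnmb Fabp5 macrophages 382 CPM (369 to 396). Lyve1 Folr2 macrophages were 9.70-fold (8.72 to 10.8) above Ly6c2 Chil3 monocytes. After thinning, 92.7% of Lyve1 Folr2 and 24.8% of Ly6c2 Chil3 barcodes had a Timp2 UMI (98.4% and 39.3% before, at median depths of 11302 and 10416 UMIs). The dendritic classes ranged from 38.3 CPM in Xcr1 Clec9a to 84.7 CPM in Ccr7 Fscn1 cells.

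Timp3, the inhibitor that binds to matrix and also blocks ADAMTS enzymes, had 903 CPM (835 to 974) in mural, 800 CPM (718 to 888) in endothelial and 784 CPM (758 to 811) in tenocyte barcodes. Macrophages had 3.15 CPM (2.74 to 3.60), which is 0.683% of the stromal level (2.46% with a minimum of 2000 UMIs). This was within background by the limit of 1.79%, though above the 0.527% of Col1a1. Among fibroblasts Timp3 was highest in the class where Timp1 was lowest, with 672 CPM (651 to 694) in Pi16 Dpp4 and 145 CPM (127 to 166) in Smoc2 Cxcl14 fibroblasts. Among the classes Timp4 was vascular, with 339 CPM (287 to 398) in endothelial and 108 CPM (86.0 to 135) in mural cells, 3.13-fold apart (2.37 to 4.16), and 0.935 CPM (0.593 to 1.40) in the stroma. The endothelial and mural classes held 44 and 60 barcodes. The 364 barcodes left out as possible doublets held 248 of the 518 Timp4 UMIs, at 50.9 CPM (44.8 to 57.7).

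Summed over the families, TIMP and protease UMIs were in different proportion by class. A 3' tag counts a transcript once whatever its length, so sums were taken over genes without a length term. Lyve1 Folr2 macrophages had 6.24 TIMP UMIs for each Mmp or Adamts UMI, of which Timp2 made up 98.9%. Gpnmb Fabp5 macrophages had 0.691 and Ly6c2 Chil3 monocytes 0.335. Single barcodes weigh on these sums, through Mmp12 in both classes and Timp1 in the monocytes, as given above. The sums also keep UMIs that were read as background. The summed Mmp level was 86.9 CPM (84.0 to 89.9), 580 CPM (564 to 597) and 320 CPM (303 to 336) in the same order. Stromal barcodes had 0.636 TIMP UMIs per protease UMI and tenocytes 1.55, at summed Adamts levels of 1626 CPM (1610 to 1642) and 939 CPM (911 to 969). mRNA proportions do not measure enzyme activity.

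The other 15 members were low. Mmp1b and Mmp7 had no UMI in the 8701 barcodes. The other 13, which were Adamts7, Adamts8, Adamts13, Adamts14, Adamts18, Adamts19, Adamts20, Mmp10, Mmp15, Mmp20, Mmp21, Mmp24 and Mmp28, had at most 250 UMIs and at most 27.5 CPM in any class of 30 or more barcodes. The highest of these levels was that of Mmp15 in endothelial barcodes, from 12 UMIs (14.2 to 48.0 CPM).

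Genes around the pathway were counted as lists, to be read against the backgrounds given above (16.8% and 9.76% of features between stromal and macrophage barcodes, 2.17% and 7.65% between the macrophage classes). Among the regulators with at least 5 CPM on either side, Reck, a membrane inhibitor of MMPs (47.7 against 0.411 CPM), Plat, the tissue plasminogen activator (170 against 1.91 CPM), and Serpine2, a serine protease inhibitor (380 against 2.65 CPM), were at least 4-fold higher in stromal than macrophage barcodes. Plaur, the urokinase receptor, was the 1 at least 4-fold higher in macrophages, at 309 against 21.5 CPM, and reached 755 CPM (730 to 781) in Ly6c2 Chil3 monocytes. Of 11 substrates the 10 tested were all at least 4-fold higher in the stroma, of which Col1a1, Col1a2, Col3a1 and Dcn were also among the genes used to check the stromal gate. Of these substrates Vcan, the main target of the Adamts1 group, and Fn1 were also at least 4-fold higher in Gpnmb Fabp5 than in Lyve1 Folr2 macrophages, with Vcan at 53.8 against 4.59 CPM and Fn1 at 782 against 31.1 CPM. The ADAMTS-like genes, which lack a protease domain, were at least 4-fold higher in the stroma for 3 of 4 tested, with Adamtsl1 at 367 CPM (359 to 375). Of 7 membrane ADAMs 1 was at least 4-fold higher in the stroma, Adam12, and 1 in macrophages, Adam8, at 40.5 against 2.03 CPM, which like the 5 members above was also higher in Gpnmb Fabp5 (120 CPM) than in Lyve1 Folr2 macrophages (11.4 CPM). Between the same macrophage classes 0 of 6 regulators passed the limit in either direction, and Adamtsl5 and Adam19 were at least 4-fold higher in Lyve1 Folr2 macrophages. Between tenocytes and fibroblasts, where 3.77% of 11136 features were at least 4-fold higher in tenocytes and 5.59% in fibroblasts, Comp was the 1 gene of the 4 lists past the limit in tenocytes, among 10 substrates tested. Higher in fibroblasts were 2 of 9 regulators (Plau and Serpine2), 4 of 10 substrates (Vcan, Col3a1, Col4a1 and Eln), 1 of 4 ADAMTS-like genes (Adamtsl5) and 1 of 6 membrane ADAMs (Adam19).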

How the data were processed

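The authors aligned the reads of 10x 3' libraries with Cell Ranger (7.1.0 in the submitters' processing notes, 8.0.1 in the file header) and deposited UMI counts per gene and barcode, not normalized, after cell calling. The sources name mm10, GRCm38 and GRCm39 as builds. Only the GFP+ 7 dpi library was analysed, with a total of 170648616 UMIs.

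Members and lists were chosen with earlier results of these data known. A gene of the regulator list is not reported here. Barcodes with at least 5000 UMIs, more than 200 genes and under 10% mitochondrial UMIs were kept. A barcode's share for a marker list was divided by a high percentile of that share over barcodes. It joined the list with the top score if that was at least 0.15 with 3 or more of its genes present (0.1 and 2 genes for classes within the myeloid and stromal lineages) and if the second score was at most 1/3 of it (1/2 within lineages). The 364 barcodes without that margin were left out as possible doublets, with no other doublet filter, and 170 passed no gate. UMIs were summed per class. For shares, every barcode was first thinned to 5000 UMIs. Alternatives covered depth, gate limits, filters, weighting, denominator, the leading barcodes, the CPM limit, the fold and the thinning. Intervals were exact (Poisson for levels, Clopper-Pearson for shares, conditional binomial for ratios), all at 95%. No test across cells was made, since barcodes are not replicates. Genes were described by the rule of 20 CPM from 30 UMIs in a class of 30 or more barcodes, and ordered by enzyme group. Gates, fold calls and intervals were tested on simulated data. Motifs and positions came from RefSeq tables of GRCm38.p6. Calculations used Python 3.11.15, numpy 2.4.6, scipy 1.17.1 and pandas 2.3.3.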

Additional observations from a re-analysis of the deposited data

How the results depend on the processing

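The counts between lineages were recomputed under 14 alternatives, 2 of which (macrophages with an inner gate only, stroma without tenocytes) were chosen after the data had been seen. The count of members at least 4-fold higher in stromal than macrophage barcodes ranged from 20 of 24 tested to 25 of 33 tested (with a limit of 1 CPM), beside 15.9 to 19.4% of all features. At a fold of 2 in place of 4 it was 25 of 29, beside 25.2%. The count in the other direction stayed at 2 or 3, except that without the 1% of barcodes with most UMIs of each gene it was 1, Mmp9, because the Mmp12 level in macrophages was then 3.07 CPM, under the limit of 5 CPM for a comparison. With a minimum of 10000 UMIs the log2 stromal to macrophage ratio of Mmp13 turned from -0.13 to 0.25. It was -1.20 as a mean over single barcodes, -2.21 without the 1 stromal barcode with most Mmp13 UMIs (chosen after the data had been seen) and -4.83 without the deepest 5% of each class. Of 283 recomputed ratios of single members 202 stayed within the counting interval, 80 moved outside it and 1 changed sign. The minimum of 2000 UMIs moved the largest number, with 22 of 30 ratios outside the interval and 19 closer to 0 by over 1.5-fold. The log2 ratio of Adamts15 went from 10.11 to 5.38, that of Mmp12 from -7.25 to -4.56, that of Mmp2 from 7.47 to 5.77 and that of Timp3 from 7.19 to 5.34. Without the 1% of barcodes with most UMIs of each gene, only 14 ratios could be formed, since the others had no UMI left on 1 side. Of these 14, 13 lay outside the interval and 9 were farther from 0 by over 1.5-fold. The class with the highest level was the same for 23 to 30 of the 30 members. No paired analysis was possible because there was 1 library. The level of 1 library cannot tell cell state, animal and library apart, and members under about 20 CPM rest on few UMIs in the smaller classes.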

Other observations

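The 170 barcodes that passed no gate held members as well, with Timp1 at 458 CPM (427 to 490), Mmp2 at 238 CPM (216 to 261) and Adamts3 at 173 CPM (154 to 193). The 364 barcodes left out as possible doublets had Mmp14 at 155 CPM (144 to 167) and Adamts1 at 292 CPM (277 to 307).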
